A study of Homo sapiens with 12 samples.

Results

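The numbered ZNF genes are the human genes named ZNF and a number by the nomenclature for zinc finger proteins, and 143 of them could be followed in RNA precipitated with Argonaute 2 (AGO2) from K562 cells with and without a miR-143 vector. Members were chosen by name and by level. Each was a row of the deposited tables with 1 gene name that occurs once, consisting of ZNF, a number and at most 1 further letter, and with a mean of 1 FPKM or more over the 4 groups (FPKM, fragments normalised to transcript length and library size). The tables hold 61782 rows, of which 8339 rows of 1 name reached that mean, so that the members were compared with 8196 other rows. At any level there were 403 such ZNF rows, of which 126 were listed at 0 in every group and 134 were above 0 with a mean under 1. A further 88 rows join a numbered ZNF gene with other names (48 with a mean of 1 or more), and 45 rows carry a ZNF name that occurs more than once, and neither could be assigned to 1 gene. The members closest to the limit were ZNF593, ZNF784 and ZNF169 at means of 1.07, 1.06 and 1.03 FPKM, and just under it lay ZNF266, ZNF34 and ZNF518B at 0.984, 0.961 and 0.958 FPKM. The mean is the measured value that selected the members, and it is given as a description.

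To learn which mRNAs AGO2 holds when miR-143 is supplied, K562 cells, a human erythroleukemia line, were stably transduced with pLV-miR-143 or with the pLV-control vector and selected with puromycin. According to the methods of the study, the line also carried an inducible C/EBPα-ER fusion, in both populations. Precipitates were made with an antibody to AGO2 (AGO) or, as a mock, with unspecific IgG, which gave the groups control IgG, control AGO, miR-143 IgG and miR-143 AGO with 3 samples each by the labels. The authors deposited 1 average FPKM per gene and group, so that there was no spread between samples, no test and no p-value for any difference below. The erythroid markers of the line were read in the precipitates, with GATA1 between 52.0 and 73.2 FPKM, TAL1 between 4.99 and 30.1 and KLF1 between 41.9 and 288.9, while CD3E, MS4A1, ALB and KRT5 were listed at 0 in every group and COL1A1 was above 0 in control AGO only, at under 0.1 FPKM. LMO2 and TFRC were above 0 in every group as well, whereas the globin genes HBG1, HBG2 and HBE1 stood in joined rows.

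C2H2 zinc finger proteins are the largest class of human transcription factors. Each finger is a short fold in which a pair of cysteines and a pair of histidines hold a zinc ion, and tandem fingers read a stretch of DNA. Many carry a KRAB box, which recruits TRIM28 and the histone methyltransferase SETDB1 to silence chromatin, often at transposable elements, and many of their genes lie in clusters on chromosome 19. Because the fingers are copies of each other, the coding sequence repeats as well, and microRNA seed matches can recur in it. AGO2 binds a microRNA and uses bases 2 to 8 of it, the seed, to find its target mRNAs.

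The repeat is shown for 2 sets of members. The sets were chosen by different measures, given below, and are not the ends of a common range. The following 30-base windows hold the 10 codons that open a finger, up to and past its pair of cysteines, read from the longest coding transcript of GENCODE 29 on GRCh38. Capitals mark TGAATGT, the match to the seed of miR-181, which covers the codon of the second cysteine.
ZNF717: ccctatggatgcaaTGAATGTggtaaaacc
ZNF12: ccctatgaatgcagTGAATGTgggaaatcc
ZNF33A: ccttttgaatgcaaTGAATGTgggaaagcc
ZNF317: ccttacgagtgcagcgactgcgggaaagcc
ZNF628: ccctacacctgtggagtctgcgggaagagc
ZNF746: cccttcacctgcgccacgtgtgggaagagc
ZNF717, ZNF12 and ZNF33A are shown because they had the most matches to the miR-181 seed, and ZNF317, ZNF628 and ZNF746 because they were among the members highest in AGO over IgG in both cell populations. The windows lie at chr3:75738582-75738611 (minus strand), chr7:6692111-6692140 (minus), chr10:38055274-38055303 (plus), chr19:9160390-9160419 (plus), chr19:55481716-55481745 (plus) and chr7:149474936-149474965 (minus), each within a coding exon. The match stood in 11 of 11 such windows of ZNF717, 10 of 13 of ZNF12 and 8 of 11 of ZNF33A, and in 0 of the 6, 5 and 2 windows of the other 3 genes.

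The seeds searched were those of the vector's microRNA and of miR-181 and miR-23, whose matches are known to recur in zinc finger repeats. The mature sequences are from RefSeq (GRCh38.p14), with bases 2 to 8 in capitals.
hsa-miR-143-3p: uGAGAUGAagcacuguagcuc
hsa-miR-181a-5p: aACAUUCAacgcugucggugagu
hsa-miR-23a-3p: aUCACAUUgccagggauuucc
They are encoded at chr5:149428978-149428998 (plus strand), chr1:198859108-198859130 (minus) and chr19:13836595-13836615 (minus). Of the 143 members, 142 were found by symbol in GENCODE 29, 138 of them as coding genes and ZNF767P, ZNF137P, ZNF826P and ZNF252P as pseudogenes. TGAATGT occurred in the coding part of 67 of the 138 coding members (48.6%), with up to 25 copies in ZNF717, against 11.2% of the 6716 other coding rows. AATGTGA, the match to miR-23, occurred in 32.6% of coding members and 13.3% of other coding rows, and TCATCTC, the match to miR-143, in 15.9% and 14.3%. Matches to miR-181 and miR-23 were thus frequent in the coding parts of members, whereas matches to miR-143 were about as frequent as elsewhere. Motifs were read on the sense strand of the transcript, TGAATGT and AATGTGA can overlap by 5 bases, and a match is a description and not a measured site.

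Members were mostly low mRNAs, and control IgG had the most gaps. Their mean ranged from 1.03 to 198.6 FPKM with a median of 3.18, against 6.25 for the other rows, and 95 of 143 lay under 5 FPKM. ZNF595, a KRAB zinc finger gene near the end of chromosome 4, was the highest by far, at 226 FPKM in control IgG, 279.9 in miR-143 IgG, 121 in control AGO and 167 in miR-143 AGO, and was lower in both AGO groups than in both IgG groups. The next 4 were ZNF598 and ZNF74 at means of 39.6 and 39.3 FPKM and ZNF496 and ZNF692 at 29.8 and 29.5. ZNF496 lay between 22.9 and 41.1 FPKM over the groups and ZNF692 between 16.8 and 38.8, both lowest in miR-143 IgG and highest in miR-143 AGO. The median member was at 2.82 FPKM in control IgG, 2.28 in miR-143 IgG, 2.04 in control AGO and 2.39 in miR-143 AGO, and rows of the same mean level had medians of 1.78, 2.79, 2.11 and 2.68 in the same order. Of the 143, 36 were listed at 0 in control IgG, 6 in miR-143 IgG, 11 in control AGO and 12 in miR-143 AGO, and 94 were above 0 in every group. Among rows of the same level, 32.1, 11.6, 10.8 and 8.97% were listed at 0, so that the gaps in control IgG were shared with other mRNAs of this level.

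**Figure D1:**
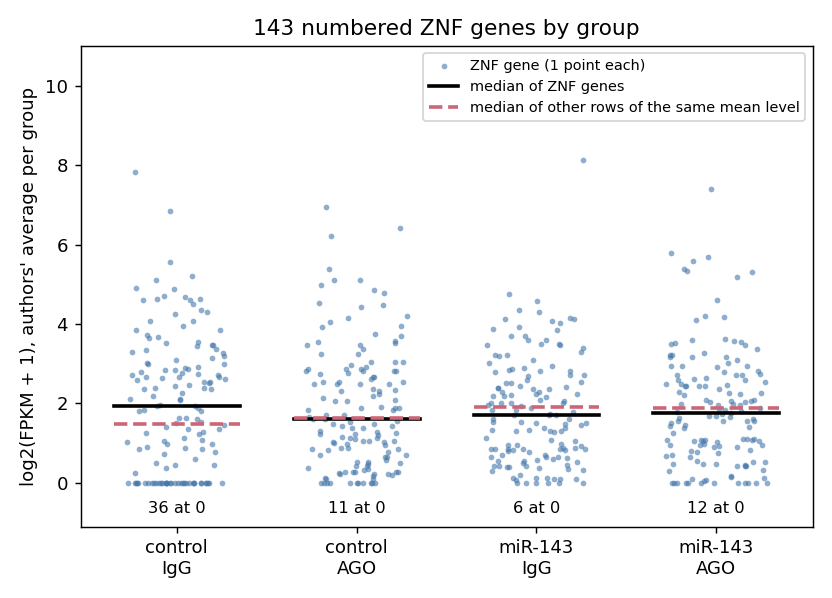
Each point is 1 of the 143 numbered ZNF genes, and the vertical axis gives log2(FPKM + 1) of the authors' average in each of the 4 groups on the horizontal axis. The black bar is the median of the ZNF genes and the dashed bar the median of other rows of the same mean level. Medians lie between 2.04 and 2.82 FPKM, ZNF595 is the highest point in every group, and control IgG has the most genes at 0 (36).

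The fragments behind these values are unknown, and their smallest steps differed between groups. The lower edge of the product of FPKM and transcript length, which falls with more fragments, was 13.5 times higher in control IgG than in miR-143 AGO, 1.64 times in miR-143 IgG and 1.09 times in control AGO, and 63 of 142 members lay under 10 such edges in control IgG against 18 to 20 in the other groups. Control AGO was therefore also compared with miR-143 IgG. Of the members, 51 passed the limit through 1 group, since their other 3 groups had a mean under 1 FPKM, and 24 of these were highest in control IgG, 16 in miR-143 IgG, 3 in control AGO and 8 in miR-143 AGO. A member of this kind had to differ between groups. Reads can also be shared with other genes, and the transcripts of every other gene were searched on either strand. Over 10% of the 100-base windows of the transcript recurred in another gene in 18 of 138 coding members, and over 50% in ZNF320 (99.5%), ZNF593 (83.6%), ZNF668 (56.2%) and ZNF384 (52.4%), whose values are uncertain. Some windows recurred in 36.2% of coding members and in 36.8% of the 672 other coding rows searched. Another gene lay within the span of 31 of 142 members on the same strand and of 80 on the other strand, and whether the libraries kept the strand is not given in the sources used here.

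AGO precipitates were compared with the mock precipitates of the same cells to ask which ZNF mRNAs were recovered with AGO2. Ratios are log2 of (FPKM + 1) over (FPKM + 1), which understates the change of low genes. Members lay on both sides of an equal ratio. In control cells the median log2 ratio of AGO over IgG was 0.22, against 0.02 in rows of the same level, with 50 members at least 2-fold higher and 46 at least 2-fold lower, where 30.2% and 33.3% of all 8339 rows were so and the same shares at the members' level were 32.4 and 29.9%. In miR-143 cells the median was 0.14, against 0.00, with 34 members higher and 32 lower, where 24.0% and 31.3% of all rows were so and 24.5 and 28.8% at the members' level. Of the 92 members that did not pass through 1 group, 41 were higher and 22 lower in control cells and 28 and 14 in those with miR-143. Of the 51 left out here, 24 were highest in control IgG and 16 in miR-143 IgG, so that mainly lower members were taken out. Other rows were not limited in this way, and these counts have no share to stand beside. Past 10-fold were 6 members higher and 10 lower in control cells (4.54% and 5.13% of all rows) and 1 higher and 0 lower in miR-143 cells (1.83% and 4.05%). Scaling the groups to equal upper quartiles gave 52 higher and 28 lower members in miR-143 cells, and scaling to equal coding sums 50 and 28, so that the higher made up 65.0 and 64.1% of those called in place of 51.5%. Scaling moves every row, and the median of all rows went from −0.13 to 0.12 and 0.09. Shares of all rows called were not computed under these scalings. A precipitate pools many cells, so that more RNA per cell and more cells holding the mRNA cannot be told apart, and RNA before precipitation was not analysed here.

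Single ZNF genes nonetheless differed widely, and in part alike in both populations. Between the ratios of the populations, made from separate groups, the Spearman correlation was 0.433 and the Pearson correlation 0.358 across the 143 members (0.337 and 0.346 across other rows). Across the 48 members with a mean of 5 FPKM or more they were 0.663 and 0.585 (0.414 and 0.411 across 4603 other rows). These are correlations across genes, which share the libraries of each group and are not replicates, and no p is given. At least 2-fold higher in AGO in both populations were 24 members (16.8%), where 12.7% of all rows and 12.7% at the members' level were so. At least 2-fold lower in both were 11 members (7.69%), where 14.2% of all rows and 9.78% at the members' level were so. A total of 4 members went opposite ways in the populations, ZNF408, ZNF148, ZNF473 and ZNF614. ZNF614 was at 18.0 FPKM in control IgG, 1.09 in miR-143 AGO and 0 in the other groups. ZNF473, which acts in histone mRNA processing, was at 0 FPKM in control IgG, 11.1 in miR-143 IgG, 3.54 in control AGO and 2.24 in miR-143 AGO. In all 4 members the highest value was that of 1 mock group, with the values of ZNF408 and ZNF148 given further below. No share of other rows is given for this count.

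**Figure D2:**
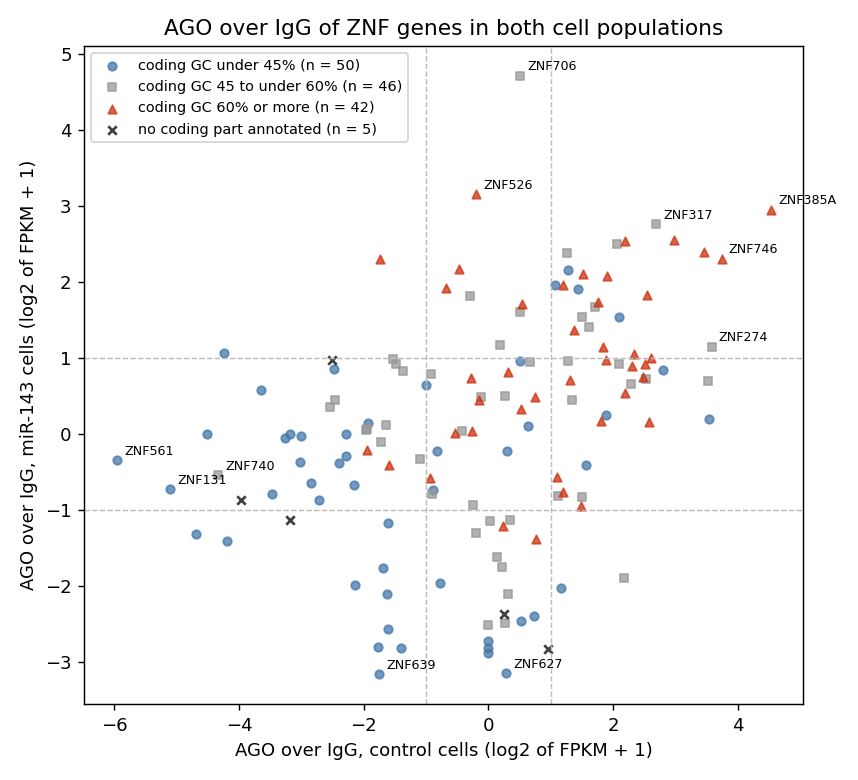
Each point is 1 ZNF gene, with its AGO over IgG ratio in control cells on the horizontal and in miR-143 cells on the vertical axis, both as log2 of FPKM + 1, and symbols give the GC content of the coding part. Dashed lines mark 2-fold. The upper right field holds 24 genes, 13 of them with a coding GC of 60% or more, and the lower left field 11, of which 10 have an annotated coding part, each under 45% GC.

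The members highest in both populations coded for regulators of quite different kinds. ZNF385A, a cofactor of p53, was at 0 FPKM in control IgG, 3.73 in miR-143 IgG, 22.1 in control AGO and 35.5 in miR-143 AGO, and was thus 9.53 times higher in AGO in miR-143 cells, while no fold is given against the value of 0. ZNF746, known as PARIS, a repressor degraded through parkin, was at 1.04, 0.824, 26.3 and 8.01 FPKM (control IgG, miR-143 IgG, control AGO, miR-143 AGO, the order used from here on), 25.3 times higher in AGO in control cells and 9.72 times in miR-143 cells. ZNF317 was at 1.35, 0.373, 14.1 and 8.30 FPKM and ZNF628 at 0.702, 0.317, 12.4 and 6.69 FPKM. In all of these, both AGO values exceeded both IgG values, as in all 24. ZNF335, a subunit of a histone H3 lysine 4 methyltransferase complex, was at 0, 0.0974, 10.0 and 4.77 FPKM, and ZNF827, which brings the NuRD complex to telomeres, at 0, 0.345, 3.19 and 6.61 FPKM. Their control IgG value was 0, and 8 of the 24 members had such a gap, so that 16 were higher with a value above 0 in every group. Others of the 24 were ZNF74 at 18.8, 12.0, 72.7 and 53.9 FPKM, ZNF672 at 6.12, 13.7, 40.5 and 50.9 FPKM and ZNF771 at 5.30, 3.19, 27.8 and 23.4 FPKM. Here AGO exceeded IgG 3.87 and 4.48 times for ZNF74, 6.62 and 3.72 times for ZNF672 and 5.24 and 7.34 times for ZNF771, in control and then in miR-143 cells. ZNF213 was at 2.05, 0.808, 9.39 and 5.03 FPKM, which completes the 10 members with the largest smaller ratio of the pair.

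The 10 coding members lower in both populations all had a coding GC content under 45%, and 6 of them held the KRAB pattern described below. ZNF33A was at 9.43, 19.5, 2.04 and 1.94 FPKM, so that IgG exceeded AGO 4.61 times in control and 10.1 times in miR-143 cells. ZNF121 was at 13.5, 10.3, 2.26 and 1.85 FPKM, with ratios of 5.94 and 5.55 of IgG over AGO. ZNF639 was at 6.29, 8.22, 1.17 and 0.0279 FPKM and ZNF175 at 2.48, 8.30, 0.138 and 0.562 FPKM. ZNF644, a partner of the G9a histone methyltransferase, was at 5.74, 3.57, 1.18 and 0.0588 FPKM, and ZNF326, which links RNA polymerase II to splicing, was listed at 0 in both AGO groups and at 1.63 and 6.07 FPKM in control and miR-143 IgG. The others were ZNF519 at 23.5, 2.69, 0.345 and 0.391 FPKM, ZNF765 at 9.17, 3.60, 2.16 and 0.351 FPKM, ZNF766 at 2.68, 1.53, 0.206 and 0.126 FPKM, the pseudogene ZNF826P at 8.12, 2.05, 0 and 0.391 FPKM, and ZNF347. All 11 had both AGO values below both IgG values, as had 30 of the 143 members, against 48 with both AGO values above. Other rows were not counted in this way, so that the counts of 30 and 48 have no share to stand beside.

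**Figure D3:**
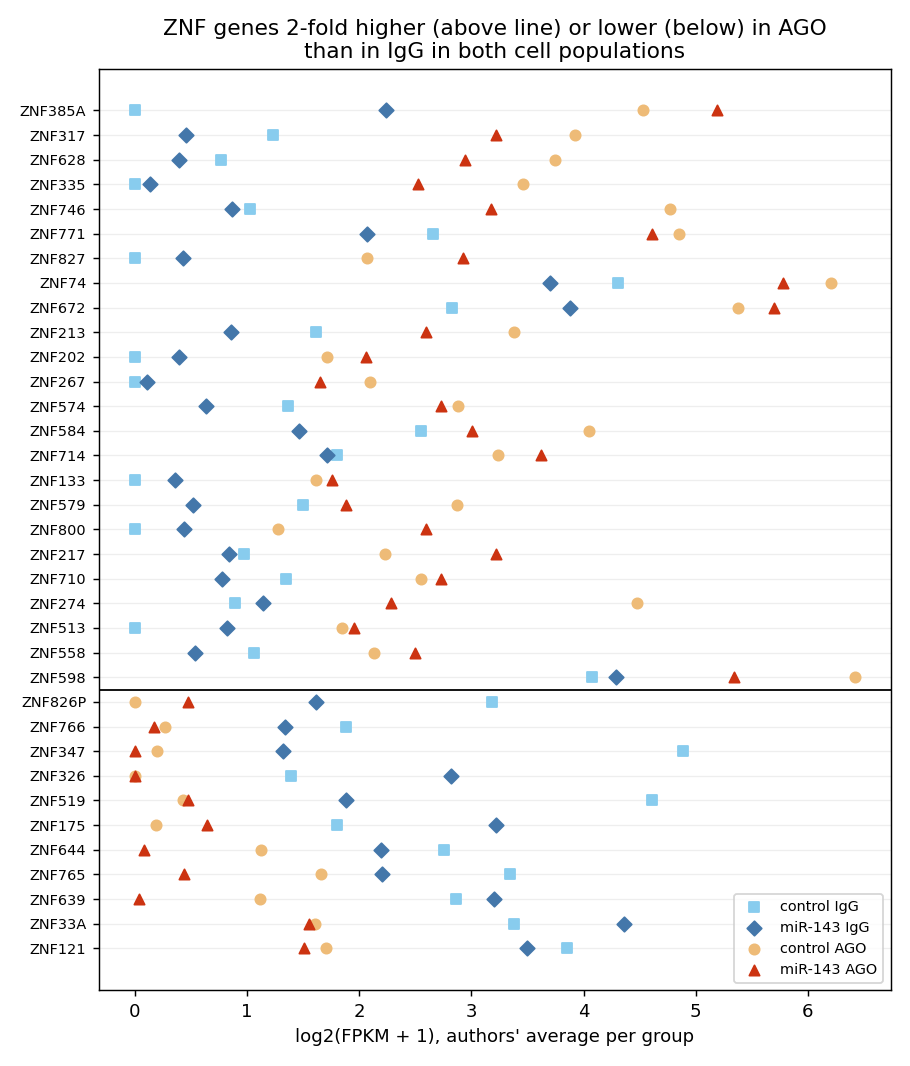
Above the line stand the 24 ZNF genes whose AGO value was at least 2-fold that of IgG in both cell populations, and below it the 11 that were at least 2-fold lower. The horizontal axis gives log2(FPKM + 1) of the authors' average, with squares and diamonds for control and miR-143 IgG and circles and triangles for control and miR-143 AGO, so that the AGO symbols lie to the right of the IgG symbols in the upper set and to the left in the lower set.

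In the 5 members with the lowest ratios of control cells, control IgG was by far the highest value. ZNF561, a KRAB gene on chromosome 19 whose span also holds the antisense gene ZNF561-AS1, was at 114, 1.47, 0.845 and 0.943 FPKM, a value of control IgG over control AGO of 135. ZNF131, a BTB zinc finger gene, was at 33.5, 2.28, 0 and 0.974 FPKM and ZNF347 at 28.5, 1.5, 0.147 and 0 FPKM. ZNF740 was at 35.9, 1.85, 0.822 and 0.948 FPKM, and ZNF461 was at 21.7 FPKM in control IgG and listed at 0 elsewhere. Against miR-143 IgG, control AGO gave log2 ratios of −0.42 for ZNF561, −0.65 for ZNF740 and 0 for ZNF461 in place of −5.96, −4.34 and −4.51. ZNF131 and ZNF347 stayed at least 2-fold lower against it, at −1.71 and −1.12 in place of −5.11 and −4.68. Over all members 40 were higher and 34 lower, with a median of 0.03, where the median of all rows was −0.23. Shares of all rows called were not computed with this mock group. Among the highest ratios of control cells, ZNF292 was at 0, 0.837, 10.7 and 1.10 FPKM and ZNF398 at 0, 3.05, 10.6 and 5.58 FPKM, also with a control IgG value of 0.

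In miR-143 cells the lowest ratio was that of ZNF639 (−3.17), given above, with both AGO values below both IgG values, and ZNF385A, ZNF317 and ZNF628 were among the 5 highest. The other members at the ends of the range had a miR-143 IgG value apart from the other 3 groups. ZNF706, a short protein with 1 finger, was at 23.1, 0.822, 33.3 and 46.7 FPKM, and ZNF526 at 11.7, 0.345, 10.1 and 10.9 FPKM, so that only miR-143 IgG was low. Their ratios of AGO over IgG were 56.7 and 31.7 in miR-143 cells and 1.44 and 0.861 in control cells. At the other end ZNF627 was at 0, 11.2, 0.214 and 0.374 FPKM and ZNF788, which was not found in GENCODE 29, at 0, 14.2, 0.931 and 1.14 FPKM. ZNF136 and ZNF573 were at 6.39 and 6.07 FPKM in miR-143 IgG and were listed at 0 in every other group. None of these 4 had a high AGO value, and miR-143 IgG alone stood out.

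High and low members differed in the base composition of their coding part. Coding GC content of the 138 coding members ranged from 36.7 to 74.9% with a median of 50.1% (53.1% in other coding rows). The 42 members with 60% or more had a median log2 ratio of AGO over IgG of 1.34 in control cells, with 25 at least 2-fold higher and 3 lower, and of 0.90 in the miR-143 population, with 18 higher and 2 lower. The 50 members under 45% had medians of −1.62 and −0.40, with 9 higher and 29 lower in control cells and 5 higher and 18 lower in miR-143 cells. The 46 members between lay at 0.24 and 0.46. The median GC-rich member was at 1.94 FPKM in control IgG, 2.93 in miR-143 IgG, 6.19 in control AGO and 5.40 in miR-143 AGO, and the median GC-poor member at 5.02, 1.92, 0.64 and 0.70. By their class medians, GC-rich members were therefore higher in AGO in both populations, and GC-poor members lower in both, by a larger margin in control cells. In miR-143 cells the 21 members of 35 to under 40% GC had a median of 0, and the 29 of 40 to under 45% had −0.73.

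Other mRNAs followed the same order. Across coding rows the Spearman correlation of coding GC with AGO over IgG was 0.461 among the 138 members and 0.188 among 6716 others in control cells, and 0.383 and 0.274 in the miR-143 population, all of them across genes of the same libraries. Other coding rows of 60% GC or more had medians of 0.41 and 0.47 in control and miR-143 cells, and those under 45% had −0.45 and −0.76. Against coding rows of a like mean level (within 0.5 log2 units) and a like GC content (within 5 percentage points), a comparison added once the values were known, 28 of the 42 GC-rich members were above the median of their reference in control cells and 26 in those with miR-143, and 16 and 29 of the 49 GC-poor members with a reference were. In such a reference 17.7 GC-rich members would be 2-fold higher in control cells and 16.0 in those with miR-143, where 25 and 18 were. For the GC-poor members 17.7 and 19.8 would be 2-fold lower, where 29 and 18 were. The counts thus lay further from this reference in control than in miR-143 cells. The difference between the medians of GC-rich and GC-poor members in control cells was 2.96 log2 units, and 1.23 when miR-143 IgG stood in for control IgG. Fragment GC of each library was not given, and the part of library preparation in this order was not tested.

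**Figure D4:**
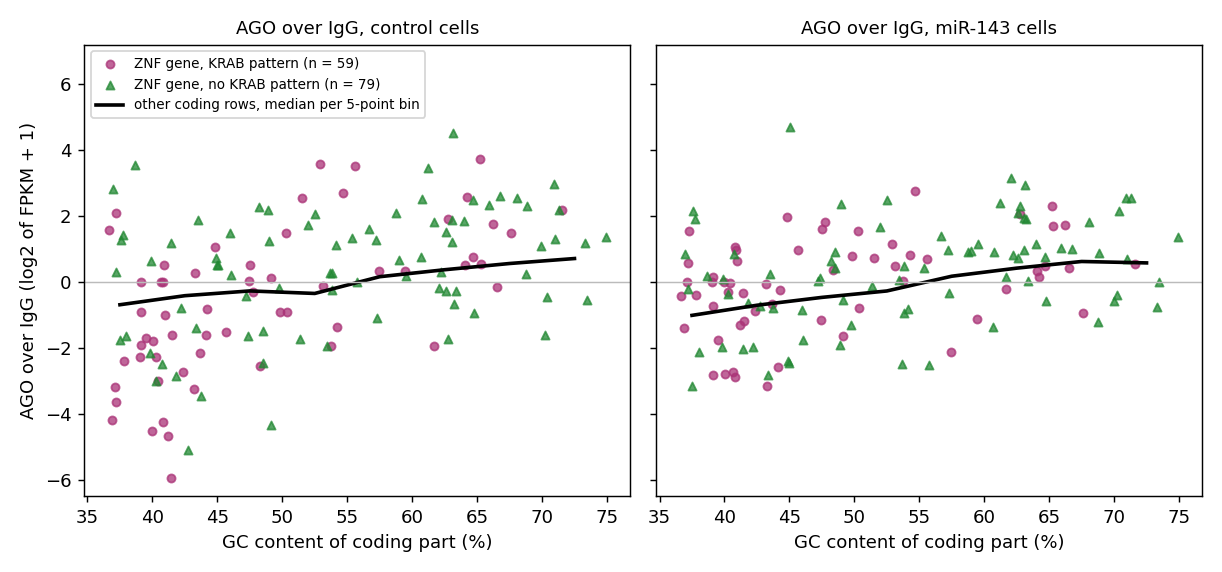
The GC content of the coding part is on the horizontal axis and AGO over IgG as log2 of FPKM + 1 on the vertical axis, for control cells on the left and miR-143 cells on the right. Points are 138 coding ZNF genes, by whether the KRAB pattern was found, and the line is the median of other coding rows in bins of 5 percentage points. In control cells the points under 45% GC reach lowest, down to −5.96 for ZNF561, and in both panels most points of 60% GC or more lie above 0.

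Members with a KRAB box had lower ratios, lower GC content and more seed matches at once, and the parts of these features cannot be told apart here. A protein pattern of the KRAB box was found in 59 coding members and not in 79, and older or diverged boxes can be missed by it. Members with the pattern had a median coding GC of 44.8% against 54.1%, 27 of the 59 lay on chromosome 19 against 15 of the 79, and TGAATGT was in 42 of the 59 and 25 of the 79. Their median log2 ratio in control cells was −0.29, with 14 higher and 25 lower, against 0.64 with 36 higher and 18 lower without the pattern. Of all rows, 30.2% were higher and 33.3% lower in control cells, and of other coding rows under 45% GC 24.1% and 41.3%. In miR-143 cells the medians with and without the pattern were 0.00 and 0.44. Within GC classes this order was not the same everywhere. Among GC-poor members the medians with and without the pattern were −1.85 and −0.24 in control cells but −0.37 and −0.69 in miR-143 cells, and among GC-rich members 1.49 and 1.31 in control cells and 0.48 and 0.97 in those with miR-143. The number of fingers, which ranged up to 31 with a median of 9, had Spearman correlations of only 0.0675 and 0.0426 with the ratios in control and miR-143 cells.

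Members with many matches to the miR-181 seed had lower median ratios of AGO over IgG than members without a match, by a larger margin in control cells. The 17 members with 5 or more matches in the coding part had a median log2 ratio of −1.78 in control cells, with 1 higher and 10 lower, and of 0.00 in miR-143 cells, with 3 higher and 6 lower. The 750 other coding rows with a match hold 1 or more, a lower bar than the 5 set for these members. Of these rows, 26.4% were higher and 36.4% lower in control cells and 21.7% and 30.8% in those with miR-143. Their medians were −0.24 and −0.30. The 71 members without a match had medians of 0.54 and 0.49, with 30 and 24 higher and 14 and 9 lower. Shares of other rows with 5 or more matches, or without a match, are not given here. Whether the order by number of matches is particular to ZNF genes was therefore not tested. No member of 60% GC or more held the match, whereas 40 of the 50 GC-poor members did. Within the GC-poor class the medians with and without a match were −1.68 and −1.51 in control cells and −0.37 and −0.69 in those with miR-143, and between 45 and 60% GC they were 0.22 and 0.27, and 0.49 and 0.44. Within a GC class the medians with and without the match thus lay closer together than those of the GC classes. In GC-poor members of miR-143 cells the median was higher with a match. The part of each feature was not tested. ZNF717 with its 25 matches was at 5.56, 0.0673, 0.172 and 0.930 FPKM, ZNF12 with 18 at 0, 1.13, 0.416 and 3.13 FPKM and ZNF33A with 18 at the values above. The level of miR-181 in these cells was not analysed here.

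Members of known function are given whatever their values were. ZNF598, the ubiquitin ligase that marks collided ribosomes, was at 15.9, 18.6, 84.4 and 39.5 FPKM, higher in AGO 5.32 times in control and 2.12 times in miR-143 cells. ZNF274, which brings SETDB1 to zinc finger gene clusters, was at 0.856, 1.20, 21.2 and 3.87 FPKM, with ratios of 24.8 and 3.22. ZNF217, an oncogene amplified in breast cancer, was at 0.967, 0.794, 3.69 and 8.31 FPKM, with ratios of 3.82 and 10.5. These 3 were higher in AGO in both populations. ZNF281, a factor of GC-rich promoters, was at 2.12, 2.54, 1.33 and 2.63 FPKM and ZNF384, a partner in leukemia gene fusions, at 19.3, 10.3, 8.46 and 7.98 FPKM. ZNF622, which acts in maturation of the large ribosomal subunit, was at 7.01, 1.06, 1.07 and 1.15 FPKM, and control IgG alone stood out in it. ZNF148, which binds GC-rich promoters, was at 0.286, 4.14, 1.90 and 0.260 FPKM, higher in AGO in control and lower in miR-143 cells. ZNF143, a promoter-binding factor, and ZNF91, a repressor of SVA transposons, were under the limit with means of 0.724 and 0.436 FPKM, and ZNF207, ZNF638, ZNF93, ZNF10 and ZNF263 stood in joined rows. ZNF706 and ZNF24 are described with the comparisons in which they stood out.

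Whether miR-143 brought ZNF mRNAs to AGO2 was asked by comparing miR-143 AGO with control AGO. Fewer members were 2-fold apart in this pair than in the others. The median log2 ratio was 0.04, against 0.13 in rows of the same level, and 12 members were at least 2-fold higher and 16 at least 2-fold lower, where 13.6% and 11.6% of all rows were so and 15.0 and 11.1% at the members' level. The standard deviation over members was 0.77 log2 units, against 0.99 in rows of the same level. Past 10-fold were 0 members in either direction, where 0.288% of all rows were higher and 0.732% lower. The 2 AGO groups had a Pearson correlation of log2(FPKM + 1) of 0.871 across members (0.841 across other rows), whereas the 2 IgG groups had 0.155 (0.591 across other rows). These too are correlations across genes, given without a p.

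The members furthest apart in the AGO pair were of low or middle level. ZNF24, a SCAN-domain factor, was at 0, 13.3, 0.161 and 3.26 FPKM, the largest ratio at a log2 value of 1.87, with an even higher value in miR-143 IgG. ZNF609, known for its circular RNA, was at 1.41, 12.0, 1.03 and 5.74 FPKM, ZNF408 at 5.60, 0.259, 0.985 and 5.19 FPKM and ZNF282 at 3.36, 4.25, 5.35 and 16.1 FPKM. Of the 5 highest, miR-143 IgG exceeded miR-143 AGO in ZNF24 and ZNF609, but not in ZNF408, ZNF282 and ZNF12. ZNF292 had the lowest ratio with 1.10 FPKM in miR-143 AGO and 10.7 in control AGO, followed by ZNF274 with 3.87 and 21.2. ZNF232 was at 3.32, 1.63, 2.78 and 0.0618 FPKM, ZNF746 as given above and ZNF319 at 0, 0.144, 4.61 and 0.915 FPKM. ZNF274, ZNF746 and ZNF598 were thus among the members higher in AGO than in IgG in both populations, yet lower in miR-143 AGO than in control AGO, by 5.48, 3.29 and 2.14 times.

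**Figure D5:**
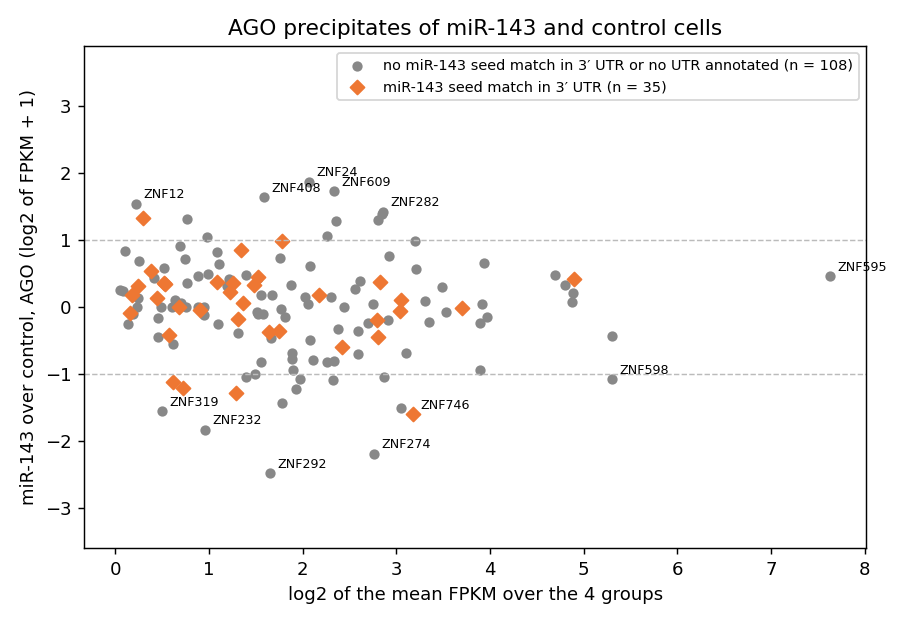
The horizontal axis gives log2 of the mean FPKM over the 4 groups and the vertical axis the ratio of miR-143 AGO over control AGO as log2 of FPKM + 1. Diamonds are the 35 ZNF genes with a miR-143 seed match in the 3′ UTR and circles the other 108. Dashed lines mark 2-fold, outside of which lie 12 genes above and 16 below, and 1 and 4 of these hold a match.

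Matches to the miR-143 seed were looked up in the 3′ UTR of the longest coding transcript as TCATCTC or CATCTCA, which overlap in the 8-base form TCATCTCA. A match was in 35 of 138 coding members (25.4%), against 1346 of 6716 other coding rows. Of the 9 members with the 8-base form, the 3 of highest mean are printed together with ZNF136, since it is named above, as 22-base windows of the 3′ UTR with the match in capitals.
ZNF689: atgtgacTCATCTCAtattcca
ZNF526: gcttcctTCATCTCAattctga
ZNF652: gatcattTCATCTCAgtcacgt
ZNF136: caagaccTCATCTCAgaaaaaa
They lie in 3′ UTR exons at chr16:30602788-30602809 (minus strand), chr19:42226880-42226901 (plus), chr17:49297329-49297350 (minus) and chr19:12188778-12188799 (plus) on GRCh38. ZNF689 was at 2.08, 15.4, 17.3 and 17.2 FPKM, and miR-143 AGO and control AGO were close to each other in it, as they were in ZNF526. ZNF652 was at 0.505, 0.929, 6.35 and 2.03 FPKM, lower in miR-143 AGO, and ZNF136 was listed at 0 in both. Over the 35 members with a match the median log2 ratio of the AGO pair was 0.10, with 1 higher and 4 lower, and over the 103 without one it was 0.00, with 11 higher and 12 lower. The 1 higher member with a match was ZNF324B at 0, 1.87, 0.431 and 2.60 FPKM, and the 4 lower were ZNF746, ZNF652, ZNF148 and ZNF101. The 22 members with TCATCTC in the coding part had a median of 0.33, with 5 higher and 3 lower. In the AGO pair 13.6% of all rows were higher and 11.6% lower, and called shares of other rows with a match are not given here. Rows of the same level had medians of 0.15 to 0.17 in all 3 cases, and none of these differences could be set against a spread between samples.

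Between the mock precipitates 85 members were 2-fold apart, against 28 between the AGO precipitates. In miR-143 IgG over control IgG the median log2 ratio was 0.03, against 0.29 in rows of the same level, with 42 members at least 2-fold higher and 43 lower, where 30.9% and 24.9% of all rows were so and 34.9 and 24.7% at the members' level. Over the 94 members above 0 in every group, 16 were higher and 31 lower. This limit took out the 36 members at 0 in control IgG, which cannot be lower in this ratio, against 6 at 0 in miR-143 IgG. Other rows were not limited in this way, so that the 2 counts have no share to stand beside. Past 10-fold were 4 members higher and 11 lower (6.04% and 3.43% of all rows). GC-poor members had a median of −0.53, with 14 higher and 22 lower, and GC-rich members of 0.19, with 12 higher and 5 lower. Other coding rows did not share this order. Those under 45% GC had a median of 0.37, with 38.6% higher and 24.7% lower. Those of 60% GC or more had a median of 0, with 25.8% higher and 26.1% lower. Of the 40 coding members that were lower, 22 were thus GC-poor, among them ZNF561 and ZNF347. AGO over IgG of miR-143 cells divided by that of control cells gives the IgG-corrected miR-143 ratio, which holds all 4 groups. Its median was 0.12, against −0.20 at the same level, with 47 members higher and 49 lower, where 29.3% and 32.5% of all rows were so and 29.8 and 35.3% at the members' level, and past 10-fold were 12 higher and 4 lower (5.35% and 7.48%). Its standard deviation over members was 2.11 log2 units, against 0.77 in the AGO pair and 2.01 in the IgG pair.

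The mRNAs of proteins that KRAB zinc fingers work through were read as well. Of 15 genes of the KRAB co-repressor machinery, 12 could be followed. In control cells 1 was at least 2-fold higher in AGO and 6 were lower, and in miR-143 cells 0 were higher and 7 lower, with medians of −0.96 and −1.59 against −0.17 and −0.19 at their level. Of rows at their level, 31.1% were higher and 34.7% lower in control cells and 24.8% and 31.6% in those with miR-143. TRIM28, the scaffold that KRAB boxes bind, was at 153, 121, 70.0 and 81.6 FPKM, below the mock precipitates in both populations. SETDB1 was at 23.9, 4.30, 1.39 and 5.64 FPKM, and the heterochromatin proteins CBX1 and CBX3 were at 28.1, 3.95, 0.433 and 3.99 FPKM and 15.2, 5.31, 1.57 and 0.912 FPKM. HDAC2 was at 9.33, 31.4, 3.66 and 0 FPKM. In the AGO pair 3 of the 12 were higher and 1 lower, where 14.1% and 11.7% of rows at their level were so.

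Other zinc finger families were counted beside the numbered ZNF genes, without a test of the difference. Of 25 ZBTB rows, whose proteins join a BTB domain to fingers, 13 were 2-fold higher and 4 lower in control cells and 11 and 7 in those with miR-143, with medians of 1.09 and 0.79, where 32.1% and 29.2% of rows at their level were higher and lower in control cells and 24.0% and 28.9% in the other population. Of 11 KLF and SP rows, factors of GC-rich promoters, 6 were higher and 1 lower in control cells and 4 and 4 in those with miR-143, where 31.6% and 32.6%, and 25.2% and 30.6%, of rows at their level were so. Of 5 ZFP rows 3 were higher in each, and 1 and 0 lower, where 32.4% and 23.4% of rows at their level were higher and 26.7% and 28.5% lower. Of 8 ZSCAN and ZKSCAN rows 3 were higher and 2 lower in control cells and 1 and 2 in those with miR-143, where 31.7% and 27.5%, and 23.0% and 28.7%, of rows at their level were so. In the AGO pair 0 of the ZBTB and 0 of the KLF and SP rows were 2-fold higher, and 5 and 2 were lower, where 14.6% and 13.8% of rows at their level were higher and 11.3% and 10.9% lower.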

How the data were processed

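RNA precipitated with AGO2 antibody or unspecific IgG from K562 cells carrying pLV-miR-143 or pLV-control was sequenced from 12 samples in 4 groups taken from the sample titles. The labels name removal of ribosomal RNA, random priming and paired reads, and the methods of the study a TruSeq RNA kit. The deposited FPKM values were made by the authors with TopHat and Cufflinks on hg38, named in the processing notes without versions, and the annotation is not given in the sources used here. Each of the 4 tables holds 1 average FPKM per gene and group, with no counts and no depth, so that no count model, error or test could be used and the form of the design for pooled values was followed.

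Ratios were log2((FPKM + 1)/(FPKM + 1)) over rows of 1 name with a mean of 1 FPKM or more. A member was compared with the other rows whose mean lay within 0.25 log2 units of its own (47 to 836 rows). Calls were made at 2-fold. Transcripts (the longest coding one of each gene), coding parts and 3′ UTRs came from GENCODE 29 (GRCh38), which held 89.1% of the rows tested by symbol and can differ from the authors' annotation. Fingers and KRAB boxes were found by protein patterns. Depth was read from the 10th lowest product of FPKM and transcript length over 1510 rows of genes with 1 transcript. The named genes were the 5 members of highest mean, the 5 highest and lowest ratios of 3 comparisons, the 10 with the largest smaller AGO over IgG ratio, those past 10-fold in the AGO pair, those next to the limit on the mean, and a list of 16 genes of known function, and others are named where a count is small. The members and lists were chosen with earlier results of these data known. The classes of GC content, the like-GC reference and the exchange of the mock group were added once values were known. Alternatives were another pseudocount, other filters, 3 scalings and other reference rows. Computations used Python 3.11.15, pandas 2.3.3, numpy 2.4.6 and Biopython 1.88 and were tested on simulated data. Some of the marker genes read are not reported here.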

Additional observations from a re-analysis of the deposited data

How the results depend on the processing

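No paired analysis was possible because each table gives a single averaged value per gene without replicate numbers, and for the same reason no replicate could be left out. A median was taken as unchanged when it moved by less than log2(1.5), and a count within 1.5 times. By that measure the medians of the 5 comparisons, and of the members against rows of their level, were unchanged under every alternative run, though medians near 0 could change sign. Over members above 0 in all groups the median was −0.22 for AGO over IgG in control cells (0.22 over all members) and −0.55 for the mock pair (0.03). That limit took out 36 members at 0 in control IgG, against 6 to 12 at 0 in each other group, and other rows were not limited alike. As deposited, the median of all rows was 0.00 and −0.13 for the enrichment of control and miR-143 cells and 0.11 for the AGO pair, and 0.18, 0.12 and 0.12 with equal upper quartiles.

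Counts of members 2-fold different fell by construction with stricter limits. At 10-fold they were 16 and 1 for AGO over IgG in control and miR-143 cells, 0 for the AGO pair, 15 between the mocks and 16 for the corrected ratio (96, 66, 28, 85 and 96 at 2-fold). At 1.5-fold they were 102 in miR-143 cells and 54 in the AGO pair. With a mean of 5 or more, where 48 members remain, they were 32, 22, 11, 22 and 28. Over members above 0 in all groups they were 62, 40, 47 and 57 without the AGO pair. The AGO pair had 51 with a pseudocount of 0.1 and 47 with no filter on the mean.

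The difference of GC-rich and GC-poor members in control cells (2.96) was 4.31 with a pseudocount of 0.1, 3.63 with a mean of 5 or more, 1.55 without the KRAB pattern and 1.23 with the other mock group, and that in miR-143 cells (1.31) was 2.06 with a pseudocount of 0.1. Its direction held in each. The difference of members with and without the KRAB pattern in control cells (−0.93) was −1.56 with a pseudocount of 0.1, and −1.61, −0.19 and 0.18 within the low, middle and high GC class. In miR-143 cells (−0.43) it was 0.32 and 0.43 in the low and middle class. The depth of the groups is unknown.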
